A study of Drosophila melanogaster with 4 samples.

Results

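The 61 genes described here encode the soluble proteins that work with the ribosome: translation initiation factors, elongation factors, a release factor, aminoacyl-tRNA synthetases and 3 ribosome-associated factors. They were picked by name alone from the 15495 rows of the expression table. The names start with eIF (29 genes, initiation), with Ef1, Ef2, EF or EfTu (7, elongation), with eRF (1, release) or with Aats- (21, tRNA synthetases), and Nacalpha, bic and Rack1 complete the set. RNA had been sequenced from intestinal stem cells of Drosophila melanogaster, sorted from the gut, with a pool of 100 guts behind each library. In 2 libraries the flies had expressed RNA interference against Piwi, an Argonaute protein, for 7 days at 29 °C. In the other 2 they had expressed RNA interference against mCherry, a foreign fluorescent protein, for the same time at the same temperature. The source label of these mCherry RNAi libraries also names yw. If that marks another strain, strain and target of the RNA interference cannot be told apart. The driver of the RNA interference, the marker used for sorting, and the age and sex of the flies do not appear in those labels. The p-values below rest on the spread between pools of flies. In those by limma, the spread of each gene is combined with that of genes of like level.

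In translation initiation, the eIF2 complex brings the initiator tRNA to the small ribosomal subunit, eIF2B reloads eIF2 with GTP, the eIF4 factors bind and unwind the capped mRNA, and eIF3 is the large scaffold that holds the small subunit. In elongation, eEF1A delivers each aminoacyl-tRNA, the eEF1B subunits recharge eEF1A with GTP, and eEF2 moves the ribosome along. Aminoacyl-tRNA synthetases join each amino acid to its tRNA, with separate enzymes for many amino acids in the cytosol and in mitochondria. The nascent polypeptide-associated complex of Nacalpha and bic covers new chains at the tunnel exit, and Rack1 is a scaffold on the small subunit. Intestinal stem cells of the fly renew the gut lining throughout adult life.

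Values were FPKM, in which fragment numbers are divided by transcript length and by library size, so levels can be compared between genes. Steps in the low values gave estimated depths of 1610000 and 2280000 fragments in the Piwi RNAi libraries and 2040000 and 2070000 in the mCherry RNAi libraries. The targeted gene, piwi, stood at 0.208 and 0.442 FPKM in Piwi RNAi, against 0.495 and 1.94 FPKM in mCherry RNAi, too low to be tested. All 11 progenitor markers were above 0 in every library, with sums of 1007 and 917 FPKM in Piwi RNAi and 660.0 and 808 FPKM in mCherry RNAi. Among them esg, a factor of gut progenitors, had 416 and 378 FPKM in Piwi RNAi and 240 and 302 FPKM in mCherry RNAi. Not all of the 11 behaved like esg. Groups were apart with Piwi RNAi higher for 7 of them, 63.6% beside 51.5% of all tested genes. For the other 4, emc, Sox100B, Dl and upd3, the groups overlapped. Sox100B, for instance, had 228 and 236 FPKM in Piwi RNAi and 232 and 272 FPKM in mCherry RNAi. Markers of other cell types differed between libraries, and mCherry RNAi replicate 1 stood apart. The 15 enterocyte markers summed to 2032 and 981 FPKM in Piwi RNAi and to 21032 and 1633 FPKM in mCherry RNAi replicates 1 and 2. The 13 enteroendocrine markers summed to 296 and 510 FPKM in Piwi RNAi and to 2868 and 5653 FPKM in mCherry RNAi. Most of the mCherry RNAi sums came from CG13565 (1694 and 2739 FPKM) and npf (968 and 2514 FPKM). Of the 11 tested, 8 were lower in both Piwi RNAi libraries, 72.7% beside 13.0% of all tested genes, and 3 overlapped. CG13565 passed the test (adjusted p = 0.0313 by limma). The 10 visceral muscle markers summed to 5.53 and 4.62 FPKM in Piwi RNAi and to 102 and 9.66 FPKM in mCherry RNAi. Their part in the results below was not tested. In such mixtures, fewer cells of a type and less RNA per cell cannot be told apart.

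Of the 61 genes, 54 had a mean of at least 1 FPKM and were tested, and each of these was above 0 in every library. Between the groups, 3 fell in Piwi RNAi, all among the most abundant members: the elongation factor gene Ef1alpha48D, Nacalpha and Rack1. None rose at an adjusted p under 0.05 by limma; at an unadjusted p under 0.05, 9 were higher and 7 lower. Over all 8313 tested genes, 1.18% passed the test, made up of 0.565% that fell and 0.613% that rose. At an unadjusted p under 0.05, 21.7% of all tested genes were higher and 4.85% lower. The median log2 difference of the 54 genes, taken as Piwi RNAi minus mCherry RNAi and computed as log2(FPKM + 1), was 0.42, beside 0.37 for all tested genes. The role groups lay on both sides of that value, with medians of −0.62 for the ribosome-associated factors, −0.05 for elongation, 0.03 for release, 0.28 for initiation and 0.64 for the tRNA synthetases.

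**Figure D1:**
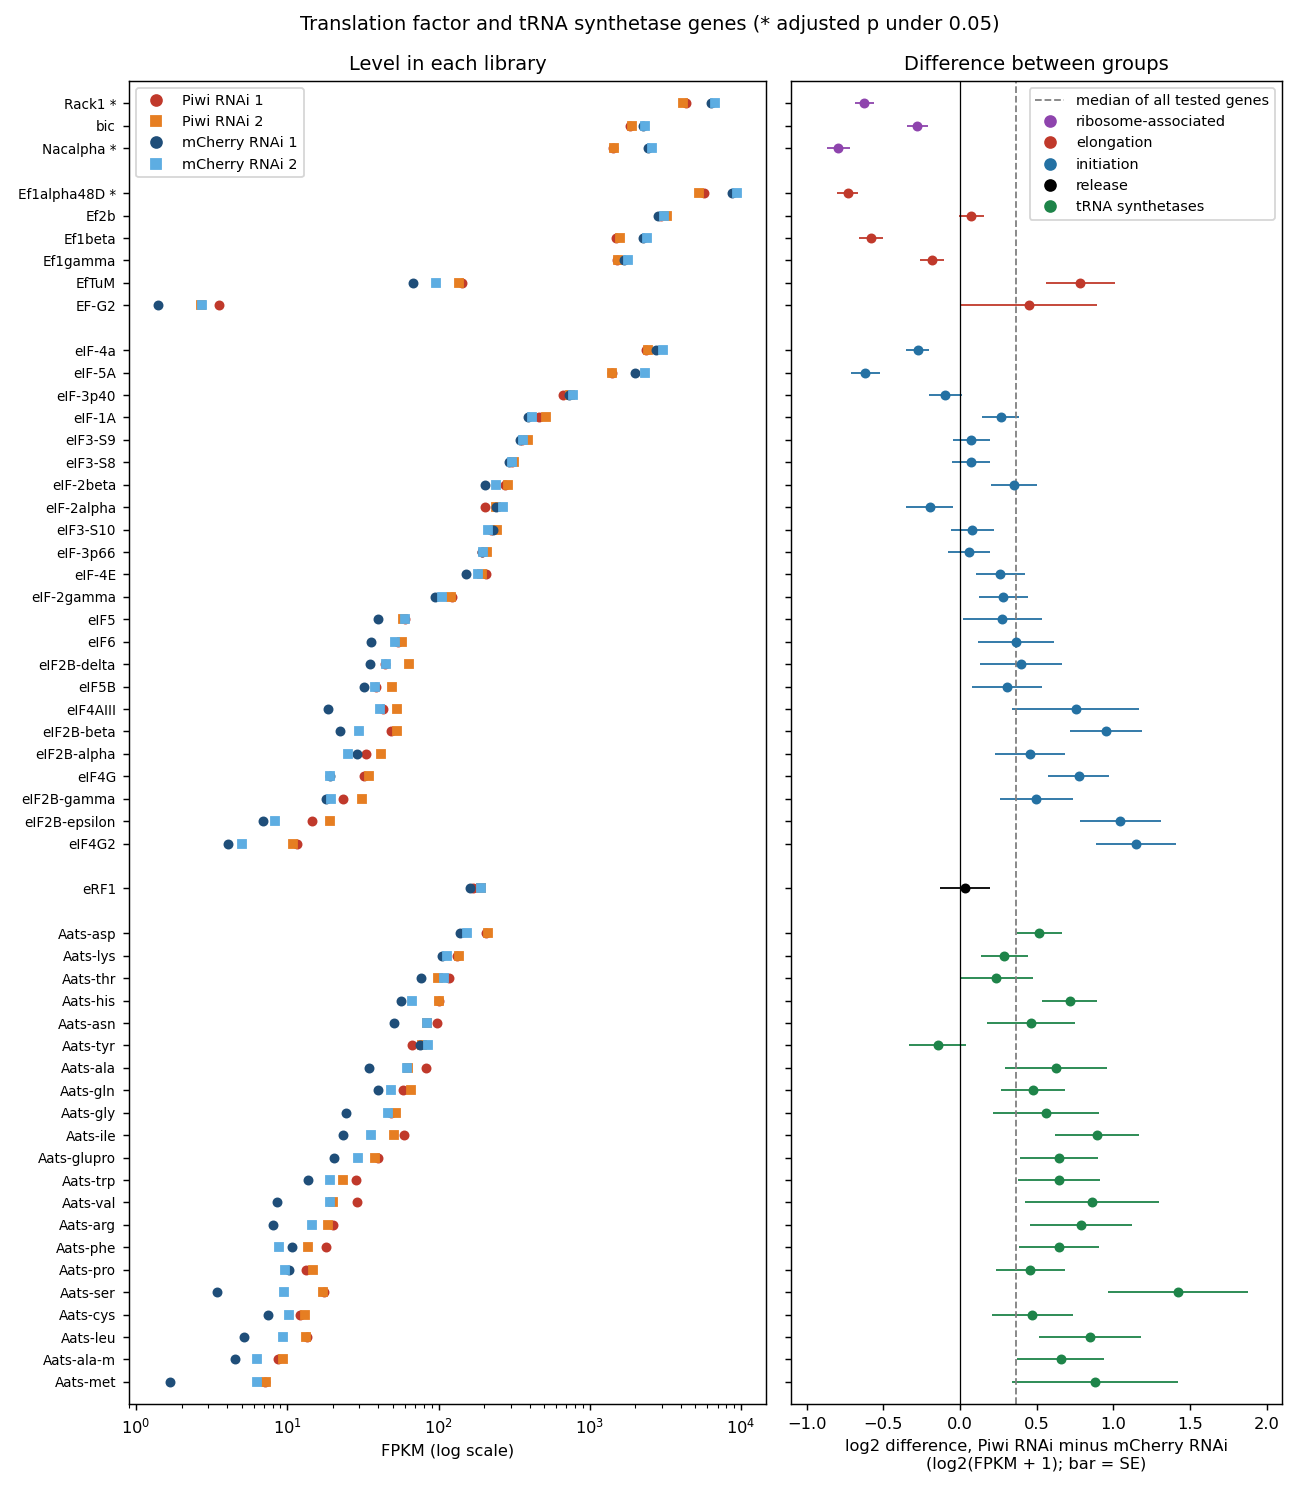
Left, FPKM of each tested gene in each library on a log scale. Right, the log2 difference, Piwi RNAi minus mCherry RNAi, with its standard error; stars mark the 3 genes past the test, and the dashed line is the median of all tested genes at 0.37. The ribosome-associated and most cytosolic elongation factor genes lie left of 0, and 20 of 21 synthetase genes lie right of it. Of all 8313 tested genes, 5817 had positive differences.

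Elongation factor transcripts were the most abundant of the set, and 1 of the 6 tested genes fell. Ef1alpha48D, which encodes eEF1A, had 5664 and 5247 FPKM in Piwi RNAi and 8666 and 9470 FPKM in mCherry RNAi. The groups did not overlap, with means of 5455 ± 295 FPKM in Piwi RNAi and 9068 ± 569 FPKM in mCherry RNAi (SD, n = 2 each). It fell to 0.602 times the mCherry RNAi mean (log2 difference −0.73 ± 0.07 SE; adjusted p = 0.0316 by limma). Ef1beta, the eEF1B subunit that exchanges the nucleotide, had 1501 and 1591 FPKM in Piwi RNAi and 2240 and 2384 FPKM in mCherry RNAi. Both Piwi RNAi libraries were again the lower ones, but the difference of −0.58 ± 0.08 did not pass (adjusted p = 0.0565 by limma). Ef1gamma, the structural subunit of eEF1B, had 1516 and 1543 FPKM in Piwi RNAi and 1681 and 1788 FPKM in mCherry RNAi, a difference of −0.18 ± 0.08 (adjusted p = 0.212 by limma) that turned to 0.23 under quantile normalization and to 0.015 with equal FPKM sums.

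Ef2b, which encodes the translocase eEF2, had 2976 and 3236 FPKM in Piwi RNAi and 2824 and 3077 FPKM in mCherry RNAi, so the groups overlapped. Its log2 difference was 0.07, with a 95% confidence interval of −0.13 to 0.28, and with median of ratios scaling it was −0.33. The mitochondrial factor genes lay at lower levels. EfTuM, the mitochondrial counterpart of eEF1A, had 142 and 136 FPKM in Piwi RNAi and 67.3 and 95.8 FPKM in mCherry RNAi. Its groups did not overlap, and the difference of 0.79 ± 0.22 did not pass (adjusted p = 0.150 by limma). EF-G2, now called mRRF2 and known for recycling of mitochondrial ribosomes, had 3.51 and 2.69 FPKM in Piwi RNAi and 1.39 and 2.73 FPKM in mCherry RNAi, or an estimated 6.7 to 14.4 fragments per library, and its groups overlapped.

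Ef1alpha100E, the second eEF1A gene, which is known for expression in nerve and muscle, was at the detection limit. It was listed at 0 in both Piwi RNAi libraries and had 0.196 and 0.966 FPKM in mCherry RNAi, an estimated 1 and 5 fragments. Since Ef1alpha48D is a close copy and far more abundant, reads of Ef1alpha100E cannot be assigned with certainty.

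The 3 ribosome-associated genes had each Piwi RNAi value below each mCherry RNAi value, and 2 fell. Over all tested genes, 13.0% were lower with no overlap between the groups. Nacalpha had 1429 and 1453 FPKM in Piwi RNAi and 2413 and 2589 FPKM in mCherry RNAi. It fell to 0.576 times the mCherry RNAi mean, with a log2 difference of −0.79 ± 0.08 (adjusted p = 0.0316 by limma). Its partner bic, the beta subunit of the nascent polypeptide-associated complex, had 1853 and 1908 FPKM in Piwi RNAi and 2249 and 2312 FPKM in mCherry RNAi. Both Piwi RNAi libraries were lower here too, but the difference of −0.28 ± 0.07 did not pass (adjusted p = 0.139 by limma) and was 0.20 under quantile normalization. Rack1 had 4319 and 4115 FPKM in Piwi RNAi and 6287 and 6707 FPKM in mCherry RNAi. It fell to 0.649 times the mCherry RNAi mean (log2 difference −0.62 ± 0.06; adjusted p = 0.0317 by limma).

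The calls of Ef1alpha48D, Nacalpha and Rack1 were lost with any 1 library left out, the adjusted p by limma then running from 0.105 to 0.477. They were also lost with no filter on low values, without the trend, by quantile normalization and, at an adjusted p of 0.0532 by limma, by median of ratios scaling. The transcript length adjustment ended those of Nacalpha and Rack1 (adjusted p = 0.180 and 0.192 by limma) and gave no value for Ef1alpha48D, and equal FPKM sums ended those of Rack1 and Ef1alpha48D (0.0694 and 0.0665). Over all alternatives the adjusted p by limma ran from 0.00901 to 0.477. Their log2 differences stayed negative under each scaling tried and with each library left out, between −1.20 and −0.20. Nacalpha and Rack1 each overlap a gene on the opposite strand in the current annotation, and the strand setting is not given. Those genes, Dgkepsilon and CG7115, were at 14.7 and 10.8 FPKM and at 11.9 and 9.71 FPKM in Piwi RNAi, and at 4.90 and 9.89 FPKM and at 8.73 and 10.5 FPKM in mCherry RNAi.

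Ratios between genes of one library do not change with the scaling of that library. The ratio of Nacalpha to bic was 0.771 and 0.761 in Piwi RNAi and 1.07 and 1.12 in mCherry RNAi, so the alpha subunit had the scarcer transcript in Piwi RNAi and the more abundant one in mCherry RNAi. For Ef1alpha48D over Ef1gamma the values were 3.74 and 3.40 in Piwi RNAi and 5.16 and 5.30 in mCherry RNAi. For Ef1beta over Ef1gamma they were 0.991 and 1.03 in Piwi RNAi and 1.33 in each mCherry RNAi library. Relative to Ef1gamma, both genes were lower in each Piwi RNAi library than in each mCherry RNAi library. Ef1alpha48D over Ef2b gave 1.90 and 1.62 in Piwi RNAi and 3.07 and 3.08 in mCherry RNAi. With 2 libraries per group an exact two-sided permutation test cannot go below p = 0.333. That was its value for each of these 4 ratios and for each ratio below whose groups did not overlap. The ratios here and below were chosen after the values were seen.

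**Figure D2:**
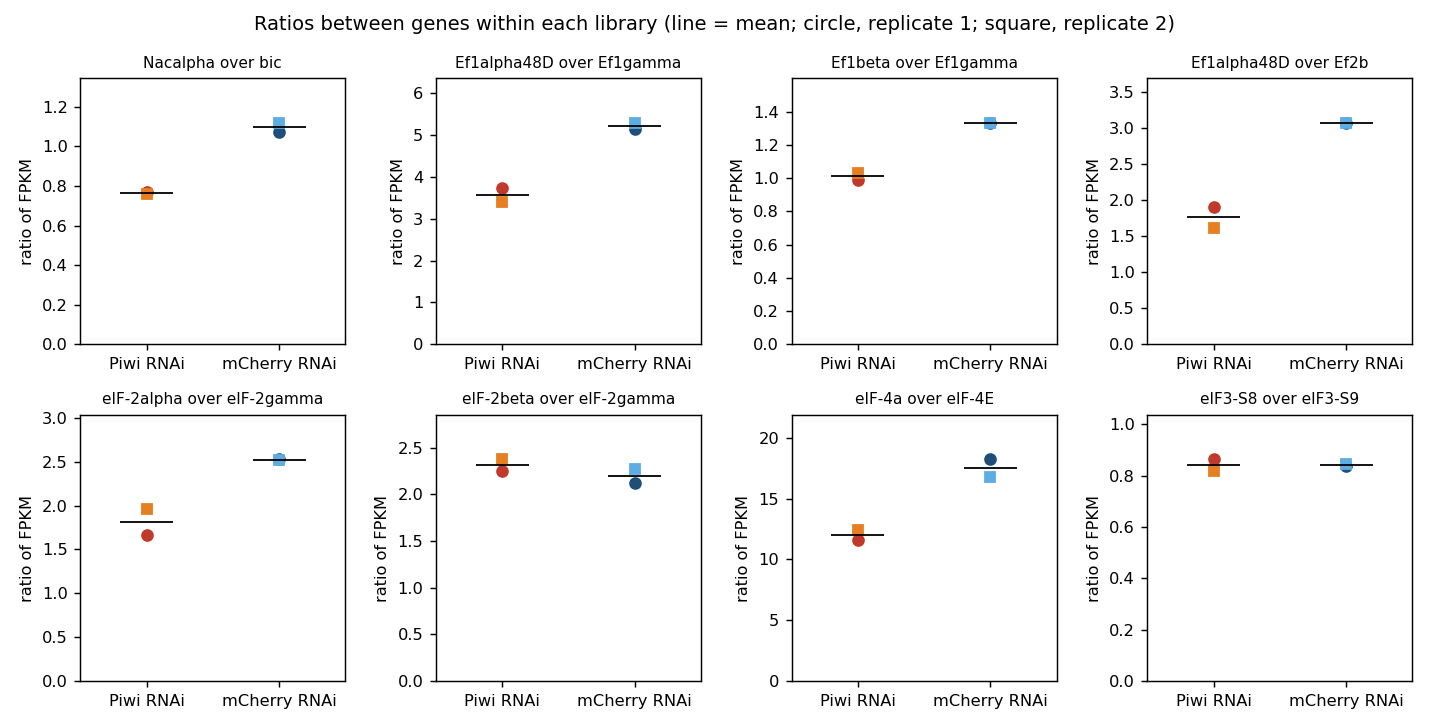
Ratio of the FPKM of the named genes within each library, Piwi RNAi left and mCherry RNAi right, with the group mean as a line. The ratio of Nacalpha to bic lies near 0.77 in Piwi RNAi and near 1.1 in mCherry RNAi, and that of eIF3-S8 to eIF3-S9 lies near 0.84 in both.

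Relative to the ribosomal proteins, whose summed FPKM was 57.5% and 57.4% of all FPKM in Piwi RNAi and 64.7% and 63.9% in mCherry RNAi, Ef1alpha48D was also lower. Its FPKM was 0.0109 and 0.00983 times that sum in Piwi RNAi and 0.0128 and 0.0141 times in mCherry RNAi. For Rack1 the values were 0.00835 and 0.00771 in Piwi RNAi and 0.00930 and 0.00998 in mCherry RNAi. Neither pair of groups overlapped.

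Of the 29 initiation factor genes, 23 were tested and 0 passed the test by limma. Higher at an unadjusted p under 0.05 were 4 (17.4%) and lower 2 (8.7%), beside 21.7% and 4.85% of all tested genes. In both Piwi RNAi libraries, 14 were higher and 3 lower than in both mCherry RNAi libraries. These are 60.9% and 13.0% of the 23, beside 51.5% and 13.0% of all tested genes. The abundant ones lay lowest. The gene eIF-5A, whose product is now called eEF5 and acts mainly in elongation, had 1402 and 1396 FPKM in Piwi RNAi and 2002 and 2303 FPKM in mCherry RNAi. Its difference of −0.62 ± 0.10 missed the threshold (adjusted p = 0.0738 by limma). The helicase gene eIF-4a had 2364 and 2420 FPKM in Piwi RNAi and 2761 and 3040 FPKM in mCherry RNAi, a difference of −0.28 ± 0.08 (adjusted p = 0.148 by limma).

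The subunits of the eIF2 trimer lay on both sides of 0. In Piwi RNAi, eIF-2alpha, the subunit phosphorylated under stress, had 204 and 239 FPKM, and in mCherry RNAi it had 240 and 267 FPKM. By contrast eIF-2beta, with 275 and 289 FPKM in Piwi RNAi and 202 and 241 FPKM in mCherry RNAi, was higher in both Piwi RNAi libraries. So was eIF-2gamma, the GTP-binding subunit, with 123 and 122 FPKM in Piwi RNAi and 95.0 and 106 FPKM in mCherry RNAi. The log2 differences were −0.20, 0.35 and 0.28, and none passed. In the current annotation eIF-2gamma overlaps Su(var)3-9 on the same strand, and eIF-2alpha and eIF-2beta each overlap a gene on the opposite strand. How far this enters their values was not tested. Within libraries, eIF-2alpha over eIF-2gamma was 1.66 and 1.97 in Piwi RNAi and 2.53 and 2.52 in mCherry RNAi. The ratio of eIF-2beta to eIF-2gamma overlapped between the groups, with 2.25 and 2.37 in Piwi RNAi and 2.12 and 2.27 in mCherry RNAi.

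All 5 subunits of eIF2B, the exchange factor of eIF2, had positive differences with a median of 0.50. Of all 8313 tested genes, 5817 were positive, with a median of 0.37. By mean level, eIF2B-epsilon lay between 5 and 20 FPKM, where the median of all genes was 0.52. The others lay between 20 and 100 FPKM, where it was 0.42. None of the 5 passed by limma. At an unadjusted p under 0.05, 2 of the 5 were higher, as were 21.7% of all tested genes. The catalytic subunit gene eIF2B-epsilon had 14.6 and 19.1 FPKM in Piwi RNAi and 6.90 and 8.31 FPKM in mCherry RNAi, a difference of 1.05 ± 0.26 (adjusted p = 0.139 by limma). Next came eIF2B-beta, with 48.7 and 53.4 FPKM in Piwi RNAi and 22.2 and 30.0 FPKM in mCherry RNAi (0.95 ± 0.23; adjusted p = 0.139 by limma). For both genes each Piwi RNAi library lay above each mCherry RNAi library. The other 3, of the gamma, alpha and delta subunits, had differences of 0.50, 0.45 and 0.40. Only eIF2B-delta overlapped between the groups, so 80.0% of the 5 were higher in both Piwi RNAi libraries, beside 51.5% of all tested genes.

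Among the cap-binding factors, the scaffold genes lay above the other subunits. For eIF4G the values were 32.3 and 34.5 FPKM in Piwi RNAi and 19.1 and 19.2 FPKM in mCherry RNAi (log2 difference 0.77 ± 0.20; adjusted p = 0.140 by limma). Its paralog eIF4G2, in flies known for a role in male meiosis, had 11.6 and 10.9 FPKM in Piwi RNAi and 4.07 and 5.01 FPKM in mCherry RNAi, the largest difference of the initiation group (1.15 ± 0.26; adjusted p = 0.133 by limma). The cap-binding protein gene eIF-4E had 204 and 194 FPKM in Piwi RNAi and 152 and 182 FPKM in mCherry RNAi (0.26 ± 0.16). The ratio of eIF-4a to eIF-4E was 11.6 and 12.5 in Piwi RNAi and 18.2 and 16.7 in mCherry RNAi. That of eIF4G to eIF-4E was 0.158 and 0.177 in Piwi RNAi and 0.126 and 0.105 in mCherry RNAi. Neither ratio overlapped between the groups.

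The 5 genes of the eIF3 scaffold that carry eIF3 or eIF-3 in their names had log2 differences between −0.09 for eIF-3p40 and 0.08 for eIF3-S10, below the median of all genes. The value of eIF-3p40 was −0.50 by median of ratios scaling and turned positive under 3 other settings (0.036 to 0.10). The core subunit gene eIF3-S9, for instance, had 357 and 388 FPKM in Piwi RNAi and 347 and 360 FPKM in mCherry RNAi, with a 95% confidence interval of −0.24 to 0.39 for its difference. The ratio of eIF3-S8 to eIF3-S9 was 0.863 and 0.817 in Piwi RNAi and 0.837 and 0.846 in mCherry RNAi. The start site factor gene eIF-1A had 461 and 514 FPKM in Piwi RNAi and 393 and 418 FPKM in mCherry RNAi (0.27 ± 0.12; adjusted p = 0.227 by limma), and its difference was −0.14 by median of ratios scaling. The DEAD-box gene eIF4AIII, whose product is a core protein of the exon junction complex, had 42.7 and 53.2 FPKM in Piwi RNAi and 18.7 and 41.3 FPKM in mCherry RNAi. Its groups did not overlap, but mCherry RNAi replicate 2 lay close to the Piwi RNAi libraries (0.75 ± 0.41; adjusted p = 0.280 by limma).

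The release factor gene eRF1, whose product recognises all stop codons, had 169 and 191 FPKM in Piwi RNAi and 162 and 189 FPKM in mCherry RNAi. The groups overlapped, and the log2 difference of 0.03 had a 95% confidence interval of −0.39 to 0.46 and turned negative under several settings, to −0.37 by median of ratios scaling.

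Restricted members of the eIF4E family were near or at 0. The genes eIF4E-3, eIF4E-4, eIF4E-5 and eIF4E-6 were listed at 0 in every library. For eIF4E-7 the table gave 0.406 and 0 FPKM in Piwi RNAi and 0.321 and 0 FPKM in mCherry RNAi, an estimated 1 fragment where it was above 0. In the same libraries 10, 10, 9 and 9 of the 11 testis markers were at 0. The factor gene eIF-4B was also listed at 0 everywhere, as were all 37 rows of the mitochondrial genome, so a 0 in this table need not mean that a transcript was missing.

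All 21 tRNA synthetase genes were tested. In both Piwi RNAi libraries 19 lay above both mCherry RNAi libraries, 90.5% of them beside 51.5% of all tested genes, and 0 passed the test by limma. At an unadjusted p under 0.05, 4 were higher, 19.0% of the group, close to the 21.7% of all tested genes. Their median log2 difference was 0.64, or 0.28 above that of all genes, and 18 of the 21 lay above the median of all genes. The group median was positive under each scaling tried, from 0.25 to 0.83. Summed over the group, the synthetases had 1177 and 1131 FPKM in Piwi RNAi and 719 and 948 FPKM in mCherry RNAi.

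The aspartate enzyme gene Aats-asp was the most abundant, with 205 and 212 FPKM in Piwi RNAi and 138 and 154 FPKM in mCherry RNAi. Its groups were well apart for their spread, but the difference of 0.52 ± 0.15 did not pass (adjusted p = 0.150 by limma). Aats-lys, for lysine, had 132 and 136 FPKM in Piwi RNAi and 105 and 114 FPKM in mCherry RNAi (0.29 ± 0.15, and −0.12 by median of ratios scaling). Aats-his, the histidine enzyme gene, had 101 FPKM in each Piwi RNAi library and 56.6 and 66.4 FPKM in mCherry RNAi, a difference of 0.71 ± 0.18 and the smallest adjusted p of the group (0.139 by limma). Aats-ile, for isoleucine, had 59.4 and 50.5 FPKM in Piwi RNAi and 23.5 and 35.8 FPKM in mCherry RNAi (0.90 ± 0.27). For both genes the Piwi RNAi values were the higher ones in every pairing of libraries.

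The only negative difference of the group belonged to Aats-tyr, for tyrosine. It had 66.9 and 77.7 FPKM in Piwi RNAi and 75.0 and 85.0 FPKM in mCherry RNAi, so the groups overlapped (−0.15 ± 0.19; adjusted p = 0.603 by limma). The other gene with overlapping groups was Aats-thr, for threonine, with 118 and 99.3 FPKM in Piwi RNAi and 76.9 and 109 FPKM in mCherry RNAi.

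By their current symbols 6 of the 21 encode mitochondrial enzymes, all with means under 20 FPKM. Their median difference was 0.75, against 0.56 for the other 15. All 6 were higher in both Piwi RNAi libraries, beside 13 of the other 15 (86.7%) and 51.5% of all tested genes. Between 5 and 20 FPKM, where the 6 lie, the median was 0.52 for all 3100 genes and 0.79 for the 9 synthetases. Whether compartment or level goes with the contrast was not tested. Aats-ser, now SerRS-m, had 17.5 and 17.2 FPKM in Piwi RNAi and 3.45 and 9.50 FPKM in mCherry RNAi, the largest difference of all 54 genes (1.42 ± 0.46; adjusted p = 0.162 by limma). It was 0.81 without mCherry RNAi replicate 1, below the 1.03 of eIF4G2 and the 0.93 of eIF2B-epsilon in that fit, and 2.04 without mCherry RNAi replicate 2. The estimated fragments behind these values were 68 and 95 in Piwi RNAi and 17 and 48 in mCherry RNAi. Aats-met, now MetRS-m, had the lowest level, 7.08 and 7.24 FPKM in Piwi RNAi and 1.68 and 6.32 FPKM in mCherry RNAi. In both genes the mCherry RNAi libraries differed from each other by more than the Piwi RNAi libraries did.

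The synthetases were low in mCherry RNAi replicate 1 in particular. There, 19 of 21 were below mCherry RNAi replicate 2, with a median log2 gap of −0.50, where 63.7% of all tested genes were lower and the median gap was −0.18. The same library had the high enterocyte and muscle marker sums given above. Against mCherry RNAi replicate 2 alone, both Piwi RNAi libraries were higher for 19 of the 21 genes (58.6% of all tested genes). The median difference without mCherry RNAi replicate 1 was 0.39, or 0.12 above that of all genes, and 0.86, or 0.40 above it, without mCherry RNAi replicate 2. The Piwi RNAi libraries differed little, with 10 of the 21 lower in replicate 1 and a median gap of 0.02.

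**Figure D3:**
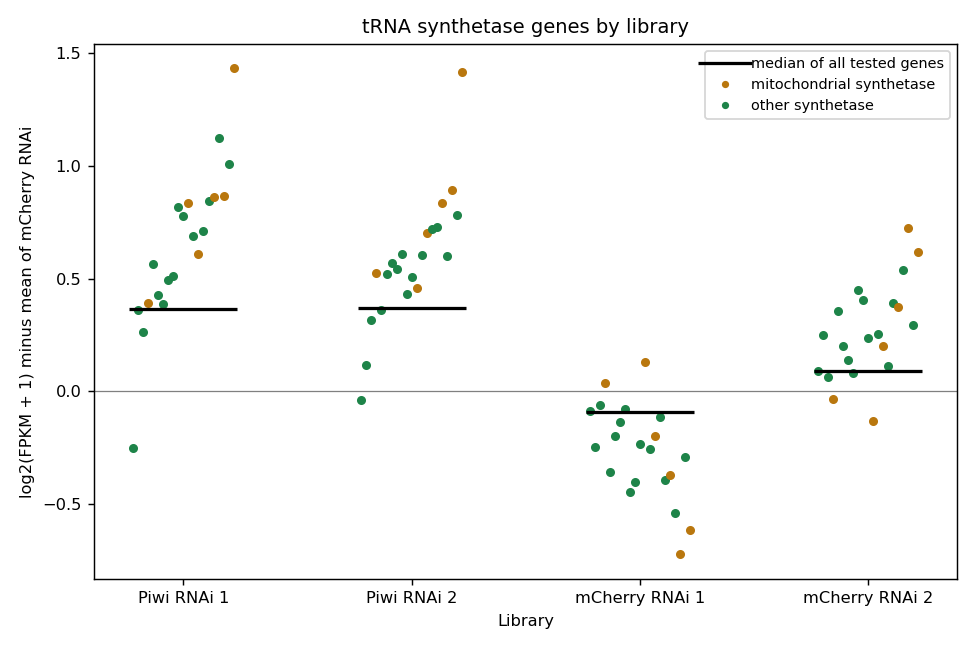
Each point is a tRNA synthetase gene, drawn as its log2(FPKM + 1) minus the mean of the mCherry RNAi libraries; black bars are the medians of all tested genes in each library. In mCherry RNAi replicate 1, 19 of the 21 genes lie below their value in replicate 2, and both Piwi RNAi libraries lie above mCherry RNAi replicate 2 for 19 of 21.

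Across the 54 members, the difference followed the level. The rank correlation of mean FPKM with the log2 difference was −0.83 over the members, against 0.08 over all 8313 genes, and −0.83 over 42 members against −0.28 over 3313 genes at a mean of at least 20 FPKM. These are descriptions across genes of the same libraries, which are not independent. Of the 10 members with a mean of at least 500 FPKM, 9 had negative differences and 3 fell, and their median was −0.43. Of all 175 genes at that level, 129 had negative differences and 34 fell, with a median of −0.27. The 81 ribosomal protein genes among them were all negative, with 29 that fell and a median of −0.36. The 84 genes in neither set had 39 negative, 2 that fell and a median of 0.06. Between 20 and 100 FPKM the 18 members had a median of 0.53, beside 0.42 for all 2503 genes there, and between 5 and 20 FPKM the 11 members had 0.85, beside 0.52 for 3100 genes.

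**Figure D4:**
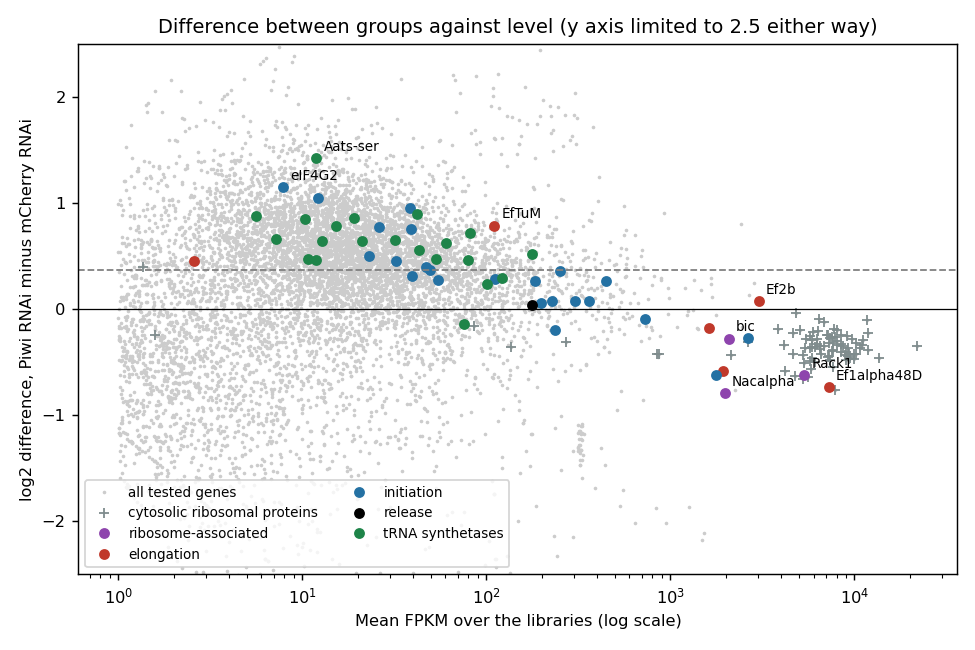
Log2 difference, Piwi RNAi minus mCherry RNAi, against the mean FPKM of each gene on a log scale. Members are coloured by role, crosses are cytosolic ribosomal proteins, grey points are all tested genes and the dashed line is their median of 0.37. Of the 10 members at 500 FPKM or more, 9 lie below 0, and all 11 members between 5 and 20 FPKM lie above it. Of all tested genes, 129 of 175 at 500 FPKM or more lie below 0, and 2429 of 3100 between 5 and 20 FPKM lie above it.

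Further genes of the translation machinery carry other names in this table, and 41 were found by their current symbols or a list. Of these, 37 were tested and 0 passed by limma, with a median of 0.49. Higher at an unadjusted p under 0.05 were 7 (18.9%) and lower 1 (2.7%), beside 21.7% and 4.85% of all tested genes. The 8 further tested eIF3 subunit genes had a median of −0.14 with 7 negative, and 5 were lower in both Piwi RNAi libraries, 62.5% beside 13.0% of all tested genes. Trip1, the eIF3i subunit, had 390 and 408 FPKM in Piwi RNAi and 534 and 521 FPKM in mCherry RNAi (−0.40 ± 0.11; adjusted p = 0.146 by limma). Int6, the eIF3e subunit, had overlapping groups with a difference of −0.05. The 11 further synthetases all had positive differences with a median of 0.63, where 5817 of all 8313 genes were positive with a median of 0.37. In both Piwi RNAi libraries 10 were higher, 90.9% beside 51.5% of all tested genes, among them CG8257, the mitochondrial cysteine enzyme, at 8.44 and 5.69 FPKM in Piwi RNAi and 2.03 and 2.00 FPKM in mCherry RNAi (1.40 ± 0.35; adjusted p = 0.139 by limma).

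The poly(A) binding protein gene pAbp had 556 and 518 FPKM in Piwi RNAi and 210 and 332 FPKM in mCherry RNAi, so it was higher in both Piwi RNAi libraries without passing (1.02 ± 0.24; adjusted p = 0.135 by limma). Elf, the release factor eRF3 that works with eRF1, had 49.0 and 52.0 FPKM in Piwi RNAi and 27.4 and 41.8 FPKM in mCherry RNAi (0.56 ± 0.27). The rescue factor gene pelo, which acts on stalled ribosomes, had 19.7 and 24.2 FPKM in Piwi RNAi and 12.3 and 17.3 FPKM in mCherry RNAi (0.55 ± 0.27). The paralogs eIF3d2, eIF3f2, eIF3g2 and eIF4H2 were listed at 0 in every library, as were the 6 betaNACtes genes, which are known from testis.

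Of 11 genes of translational control 0 passed by limma. Higher at an unadjusted p under 0.05 were 4 (36.4%) and lower 0, beside 21.7% and 4.85% of all tested genes. Lk6, a kinase of eIF4E, had 223 and 255 FPKM in Piwi RNAi and 129 and 118 FPKM in mCherry RNAi, the largest difference of the list (0.95 ± 0.16; adjusted p = 0.0838 by limma). Thor, the 4E-BP repressor of eIF4E, had 1370 and 1210 FPKM in Piwi RNAi and 1226 and 1027 FPKM in mCherry RNAi, with overlapping groups. The eIF2alpha kinase genes PEK and Gcn2 had differences of 0.64 and 0.77, with 25.0 and 25.1 FPKM and 9.61 and 10.5 FPKM in Piwi RNAi and 13.6 and 18.1 FPKM and 5.44 and 5.51 FPKM in mCherry RNAi. Their downstream factor crc, the fly ATF4, had 614 and 678 FPKM in Piwi RNAi and 436 and 558 FPKM in mCherry RNAi (0.39 ± 0.16; adjusted p = 0.200 by limma).

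The 8 genes of the signal recognition particle and its receptor, which guide new secretory chains to the endoplasmic reticulum, were all higher in both Piwi RNAi libraries, where 51.5% of all tested genes were. Their median was 0.74, beside 0.37 for all genes, and 0 passed the test by limma. At an unadjusted p under 0.05, 6 were higher, 75.0% beside 21.7% of all tested genes. By contrast, of 86 tested rows of cytosolic ribosomal proteins 29 fell, 33.7% beside 0.565% of all tested genes. Lower in both Piwi RNAi libraries were 84, 97.7% beside 13.0% of all tested genes, and the median was −0.36. The 72 mitochondrial ribosomal protein genes had a median of 0.61 with 0 past the test by limma, 24 of them (33.3%) higher at an unadjusted p under 0.05.

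**Figure D5:**
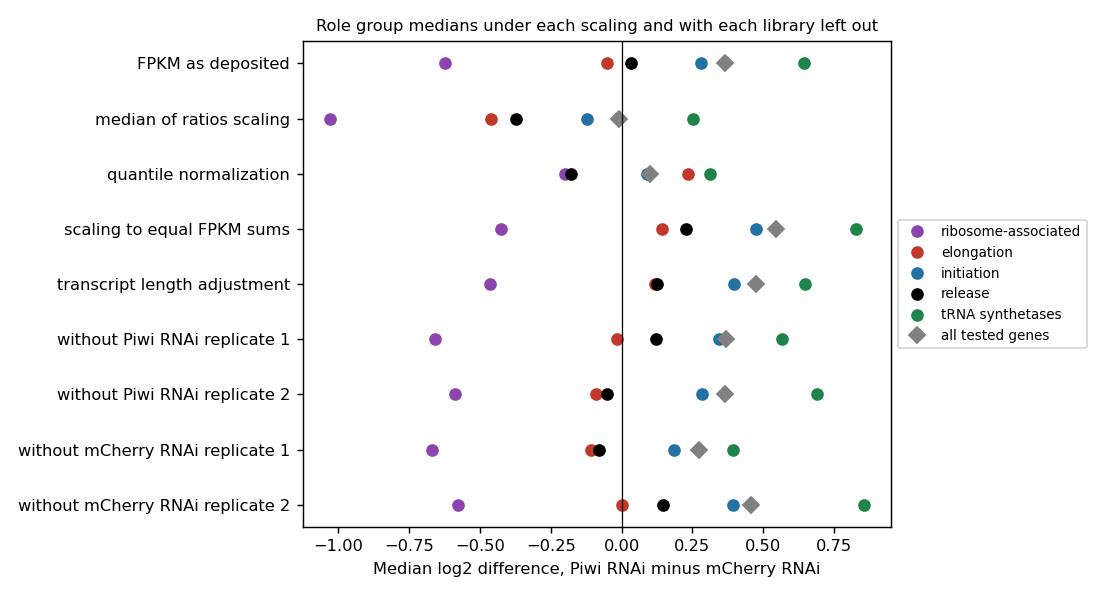
Median log2 difference, Piwi RNAi minus mCherry RNAi, of each role group and of all tested genes, under each scaling and with each library left out. The ribosome-associated factors lie lowest in every line (between −1.03 and −0.20), the synthetases lie highest (0.25 to 0.86), and the elongation group crosses 0.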

How the data were processed

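The deposited values were FPKM in a single table, with 1 column per library and no pooling of replicates. Its columns have the names that Cufflinks gives, per the file headers, and the submitters' processing notes name TopHat and Cufflinks without a version. Build, annotation, strand and scaling between libraries are not stated in the labels or the table. RNA was extracted with Trizol and sequenced after TruSeq library preparation, per the labels' protocols.

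Values were compared as log2(FPKM + 1) with limma 3.58.1 in R 4.3.3 (linear fit, eBayes with a trend, two-sided). The 8313 genes with a 4-library mean of 1 FPKM or more entered, with Benjamini-Hochberg adjustment over these genes and a threshold of 0.05. Differences are Piwi RNAi minus mCherry RNAi and understate the change of low genes. The fit was tested on simulated data.

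Depth was estimated from genes with 1 annotated transcript of at least 800 nt (effective length 130 nt shorter). Of their low values, 83.2% to 86.1% were within 0.1 of whole fragments, where chance gives 20% at a depth fixed beforehand. Depth and length offset were picked to make this share as large as possible, so the share does not test them. Fragment numbers rest on this and cover counting error only. Current symbols came from a gene name table for 57 of the 61 genes and from RefSeq synonyms for 4. In the current annotation the spans of 27 overlap that of another coding gene, on the same or the opposite strand. Introns count in these spans, and how many reads fall in shared stretches was not examined. Reads from such stretches cannot be assigned with certainty.

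Named genes were those past the test, the 4 most abundant and the 3 highest and 3 lowest differences of each role group, and names fixed in lists. Genes of eIF2, eIF2B, eIF3, eIF4F and the eIF4E family, eIF4AIII, eIF-4B and CG8257 were named after their values were seen. The members and lists were chosen with earlier results of these data known, so lists are given as counts and medians. Srp54, a splicing factor that its name had placed among the signal recognition particle genes, was left out of that list after its value was seen. The alternatives were pseudocounts of 0.1 and 5, other filters and scalings, eBayes without a trend or robust, a replicate block, a transcript length adjustment and each library left out. Promoter and protein sequences were not used here.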

Additional observations from a re-analysis of the deposited data

How the results depend on the processing

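Against 51 higher and 47 lower calls over all tested genes and 0 higher and 3 lower calls among the 54 members, a filter at 5 FPKM gave 82 and 85 over all genes, and robust eBayes gave 108 and 101, with 5 lower members (eIF-5A and Ef1beta added). With no filter on low values limma gave 0 calls in each direction and 0 lower members (7 lower at an unadjusted p under 0.05). Median of ratios scaling gave 1 and 7 calls and 0 lower members (14 lower at an unadjusted p under 0.05), quantile normalization 25 and 10 and 0 (4), eBayes without a trend 0 and 4 and 0 (5), and the transcript length adjustment 15 and 2 and 0 (2). Scaling to equal FPKM sums, an alternative chosen after seeing the data, gave 56 and 15 calls and 1 lower member, Nacalpha. Leaving out each library gave 0 calls by limma in all 4 fits, in which the lone library was assumed to vary like the other group, with 5 to 7 members lower at an unadjusted p under 0.05. With the replicate number as a block the counts were 89 and 105, with 5 lower members. The deviations of same-numbered libraries correlated at r = 0.25 across genes, but the labels do not say that a number marks a shared batch, so the numbers were not taken as pairs.

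Role group medians kept their sign for the ribosome-associated factors (median of ratios −1.03, quantile −0.20, length adjustment −0.47, equal sums −0.43) and the synthetases (median of ratios 0.25, quantile 0.31). The elongation median was −0.18 with no filter and also with the filter at 5 FPKM, −0.46 by median of ratios, 0.23 by quantile, 0.12 after length adjustment, 0.14 with equal sums, and lay between −0.11 and 8.8e-05 over the fits without 1 library. The initiation median was −0.12 by median of ratios, 0.091 by quantile, 0.40 after length adjustment and 0.48 with equal sums, and lay between 0.19 and 0.39 over those fits. The release value, eRF1, was −0.37 by median of ratios, −0.18 by quantile and 0.23 with equal sums.

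Genes with small differences changed sign. By median of ratios, which moved the median of all tested genes to −0.01, Ef2b was at −0.33, eIF-1A at −0.14, eRF1 at −0.37, Aats-thr at −0.17 and Aats-lys at −0.12. By quantile normalization bic was at 0.20, Ef1gamma at 0.23, eIF-3p40 at 0.036 and eRF1 at −0.18. With equal sums Ef1gamma was at 0.015, eIF-3p40 at 0.10 and Aats-tyr at 0.048, and after length adjustment eIF-3p40 was at 0.054. With each library left out eRF1 lay between −0.079 and 0.147 and Aats-thr between −0.012 and 0.488. The cause was not tested. The length adjustment could not be made for Ef1alpha48D, eIF-5A and Aats-phe, which had no gene model under their identifiers. Depth limits EF-G2, Ef1alpha100E and eIF4E-7 most.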
